A study of Mus musculus with 12 samples.

Results

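Transcripts that neutrophils and monocytes make, and T cells as a rule do not, were followed through 12 Illumina mouse arrays of sorted CD4+ T cells. The set holds 34 listed genes. Of these, 32 had a probe annotated with that symbol alone and were represented by the probe with the highest mean over the 12 arrays, while Fpr1 and Cd68 were not analysed here. Of the 32, 30 lay above the median of an array on at least 3 of the 12 arrays and entered the tests, among 12119 genes in all, and Ccl6 and Cybb did not.

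The cells came from C57BL/6 mice aged 8 to 12 weeks, per the labels. Naive CD4+ CD44low T cells with a GFP reporter in Foxp3, either with Blimp1 (labelled Ctrl) or lacking it (labelled Blimp1 CKO), were injected together, 1:1, into RAG1-/- recipients and told apart by an allotype marker. After 6 to 8 weeks the donor cells were sorted on CD4, Foxp3 and the allotype. This gave 4 groups of 3 arrays: Ctrl Treg and CKO Treg (Foxp3-positive, labelled pTreg), and Ctrl Teff and CKO Teff (Foxp3-negative effector cells). Spleen, mesenteric lymph node and large bowel lamina propria cells were pooled, and all 12 samples were stimulated for 4 h with PMA and ionomycin. RAG1-/- mice lack T and B cells of their own but keep their neutrophils, monocytes, basophils and NK cells. No source used here names the Cre line behind the Blimp1 deletion or says that replicates 1 to 3 were separate animals. A p-value below therefore reflects only how far these samples differ, which may be technical.

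Neutrophils are short-lived phagocytes that fill their granules in a fixed order during maturation in the bone marrow. Primary (azurophil) granule proteins such as myeloperoxidase and the elastase family are transcribed first, in promyelocytes. Specific granule proteins such as lactoferrin follow in myelocytes, gelatinase comes later, and surface receptors come last. S100a8 and S100a9 together form calprotectin, the most abundant cytosolic protein of neutrophils, and monocytes make it too.

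The values are log2 intensities as deposited, on arrays whose medians lie between 4.66 and 4.68, so a probe near 4.7 is no brighter than the middle probe of its array. The Foxp3 probe separated the sorts, with 7.29 to 8.94 on the 6 Treg arrays and 4.42 to 4.85 on the 6 Teff arrays. The Prdm1 probe, for the gene of Blimp1, read 8.47 to 9.48 in CKO Treg against 5.19 to 6.07 in Ctrl Treg, and 7.83 to 9.0 in CKO Teff against 4.64 to 5.39 in Ctrl Teff. It was thus brighter on the arrays labelled CKO, and since the sources used here do not say whether it lies inside the deleted part, it does not check these labels. Every CKO and Ctrl below refers to the label. The 12 measured T cell markers averaged 10.29 to 11.03 per array. By count, more of the listed neutrophil genes than of the listed monocyte genes left the array median. That count does not weigh how the genes moved across the arrays. Of 27 measured genes on a separate monocyte and macrophage list, 17 stayed within 1 log2 unit of the array median on all 12 arrays. On a separate neutrophil list 14 of 46 did. The 14 included Ncf1 (4.30 to 4.69), C5ar1 (4.50 to 5.12), Padi4 (4.42 to 4.94) and Clec12a (4.12 to 4.78). Some bright genes of the neutrophil list did not follow the mean of 11 neutrophil members. Examples were Il1r2 (11.39 to 13.07, r = −0.27) and Cyba (10.37 to 11.96, r = −0.21). Others did, such as Acod1 (r = 0.956) and Chil3 (r = 0.978). The 17 monocyte genes included Adgre1 (4.43 to 4.71), Ccr2 (4.38 to 4.69), Vcan (4.47 to 4.66), Mertk (4.32 to 4.81), Fcgr1 (4.33 to 4.73) and Cd163 (4.37 to 4.61). The rest of that monocyte list included Irf8 (6.21 to 10.64), Lgals3 (10.75 to 12.62), Fcgr4 (4.85 to 7.35), Mpeg1 (4.67 to 6.94) and Clec7a (5.12 to 7.26). Csf1r, the receptor that monocytes depend on, ran from 4.73 to 5.24, and the monocyte genes of the set that did vary (Cd14, Lyz2, Il1b, Fcer1g, Tyrobp) are also made by neutrophils or other myeloid cells.

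The upstream sequences of 5 members are shown because the genes moved together across the arrays, or, for Ccl9, least with the rest. Each is the 250 bases before the annotated start, from RefSeq on GRCm38.p6. 27 of the 34 members had such a sequence. Lcn2 (chr2:32387740-32387989, minus strand) and Ltf (chr9:111019042-111019291, plus strand) encode specific granule proteins, Elane (chr10:79886062-79886311, plus strand) and Mpo (chr11:87793534-87793783, plus strand) primary granule enzymes, and Ccl9 (chr11:83578637-83578886, minus strand) a chemokine. Capitals mark matches, on either strand, to TTGCNNAA, a spelling bound by the C/EBP family, and to GAGGAA, a spelling bound by PU.1 and its ETS relatives.
Lcn2: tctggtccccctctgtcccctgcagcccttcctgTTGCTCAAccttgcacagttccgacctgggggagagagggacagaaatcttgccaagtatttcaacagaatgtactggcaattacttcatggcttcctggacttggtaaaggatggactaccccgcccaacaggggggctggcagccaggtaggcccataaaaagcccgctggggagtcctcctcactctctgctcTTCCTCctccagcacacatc
Ltf: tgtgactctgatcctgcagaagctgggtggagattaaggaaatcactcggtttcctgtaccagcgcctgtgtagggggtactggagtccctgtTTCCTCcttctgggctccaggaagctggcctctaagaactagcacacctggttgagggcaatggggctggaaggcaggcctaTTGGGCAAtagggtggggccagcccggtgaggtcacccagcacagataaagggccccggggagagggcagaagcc
Elane: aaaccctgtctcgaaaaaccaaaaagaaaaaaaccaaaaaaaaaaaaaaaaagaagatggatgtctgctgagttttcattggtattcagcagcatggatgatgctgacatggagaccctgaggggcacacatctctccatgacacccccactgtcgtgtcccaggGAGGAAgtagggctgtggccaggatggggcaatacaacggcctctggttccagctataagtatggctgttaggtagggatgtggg
Mpo: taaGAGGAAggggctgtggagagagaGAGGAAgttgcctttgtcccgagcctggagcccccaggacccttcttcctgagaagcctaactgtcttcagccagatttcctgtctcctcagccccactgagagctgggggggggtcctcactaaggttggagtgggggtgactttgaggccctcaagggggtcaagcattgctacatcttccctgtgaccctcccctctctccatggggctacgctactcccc
Ccl9: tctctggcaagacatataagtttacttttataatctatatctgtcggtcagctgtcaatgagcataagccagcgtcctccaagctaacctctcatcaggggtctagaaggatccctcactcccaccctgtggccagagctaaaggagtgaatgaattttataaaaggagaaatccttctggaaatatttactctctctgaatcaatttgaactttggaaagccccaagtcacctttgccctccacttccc

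TTGCNNAA occurred in 8 of the 27 members' windows, against 9.56% of 32851 windows of the same length, and GAGGAA in 15 of the 27 against 23.25%. Among the varying genes, TTGCNNAA was found for Lcn2, Ltf, Ngp, S100a9, Retnlg and Clec4e, and GAGGAA for Mpo, Elane, Prtn3, Ctsg, S100a8, Fpr2, Clec4d, Clec4e, Lcn2 and Ltf. The windows of Camp, Ccl9, Il1b, Lyz2 and Fcer1g held neither. These spellings were picked from 8 after their counts had been seen, and a match describes letters, not binding.

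These transcripts were among the most unequal on the arrays, and they differed between samples of 1 group more than between the groups. Of the 32 measured members, 22 spanned more than 2 log2 units between the lowest and the highest array. In RNA from a sorted population, fewer cells of a type and less RNA per cell cannot be told apart. The spans of these 22 genes ran from 2.40 (Mmp9) to 7.20 (Ccl9). Where the lowest arrays lay near the array median, as for Ccl9, Elane, Prtn3, Ctsg, Fpr2 and Mmp9, the span is only a lower bound. A span over 2 was seen in 7.92% of all 12119 genes, and a span over 4 in 1.04% (126 genes), of which 20 were members. Of the 20 genes with the widest span on these arrays, 8 were members. The median SD over 12 arrays was 1.69 for the 30 members tested and 0.25 for all genes. The members were chosen with earlier results of these data known, so these shares describe the list and do not test it. The narrowest gene above the limit of 2 was Mmp9 with 2.40, and the widest below it was Cebpe with 1.75. A dimmer probe of Cebpe, not used here, spanned 2.13.

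Calprotectin gave the brightest signals of the set. S100a8 read 13.80, 10.86 and 14.38 on Ctrl Treg arrays 1 to 3, 13.02, 10.09 and 13.93 on CKO Treg, 12.90, 14.54 and 11.19 on Ctrl Teff, and 13.42, 14.09 and 12.71 on CKO Teff. S100a9 read 12.64, 8.99 and 13.19 on Ctrl Treg arrays 1 to 3, 11.64, 8.83 and 12.41 on CKO Treg, 11.56, 13.68 and 9.56 on Ctrl Teff, and 12.10, 13.10 and 10.64 on CKO Teff. Both were low on the same 3 arrays, Ctrl Treg 2, CKO Treg 2 and Ctrl Teff 3, and all 4 groups overlapped. Even there S100a8 stayed above 10, far over the array median, so no array lacked its signal. Group means of S100a8 were 13.01 ± 1.89 (SD, n = 3) in Ctrl Treg, 12.34 ± 2.01 in CKO Treg, 12.88 ± 1.67 in Ctrl Teff and 13.41 ± 0.69 in CKO Teff. On Ctrl Teff 2 the S100a8 probe read 14.54, close to the brightest value of that array (14.98).

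Among specific granule genes, Lcn2, the iron-siderophore binding lipocalin, read 11.35, 7.17 and 11.06 on Ctrl Treg arrays 1 to 3, 10.12, 6.14 and 10.54 on CKO Treg, 9.97, 12.85 and 7.01 on Ctrl Teff, and 11.003, 12.15 and 8.40 on CKO Teff. Ltf, lactoferrin, read 11.54, 6.82 and 10.21 on Ctrl Treg arrays 1 to 3, 10.03, 6.33 and 9.73 on CKO Treg, 10.15, 12.35 and 6.49 on Ctrl Teff, and 10.37, 11.72 and 7.87 on CKO Teff. Camp, the precursor of the antimicrobial peptide CRAMP, read 10.19, 5.78 and 9.10 on Ctrl Treg arrays 1 to 3, 8.66, 5.59 and 8.73 on CKO Treg, 8.47, 11.84 and 5.72 on Ctrl Teff, and 9.31, 11.14 and 7.38 on CKO Teff. The order of the arrays was nearly that of calprotectin, with spans of 6.70 log2 units for Lcn2, 6.03 for Ltf and 6.25 for Camp. Ngp, neutrophilic granule protein, read 10.25, 5.79 and 9.58 on Ctrl Treg arrays 1 to 3, 9.04, 5.15 and 9.01 on CKO Treg, 8.93, 11.52 and 6.28 on Ctrl Teff, and 10.30, 10.59 and 7.19 on CKO Teff. Retnlg, a resistin-like secreted protein of neutrophils, read 8.55, 4.98 and 8.64 on Ctrl Treg arrays 1 to 3, 7.98, 4.99 and 8.26 on CKO Treg, 8.54, 10.64 and 5.64 on Ctrl Teff, and 9.36, 9.79 and 7.15 on CKO Teff. On Ctrl Treg 2 and CKO Treg 2 Camp, Ngp and Retnlg lay between 4.98 and 5.79. Retnlg, at 4.98 and 4.99, was close to the array median (4.66 on both). Camp (5.78) and Ngp (5.79) lay more than 1 log2 unit above it on Ctrl Treg 2. Ctrl Teff 2 was the highest array for all 5.

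The primary granule genes mark early precursors rather than circulating neutrophils, and they were present as well. Mpo, myeloperoxidase, read 11.15, 6.77 and 9.43 on Ctrl Treg arrays 1 to 3, 8.68, 7.11 and 8.88 on CKO Treg, 8.19, 11.04 and 6.28 on Ctrl Teff, and 12.10, 10.88 and 6.67 on CKO Teff. Elane, neutrophil elastase, read 8.66, 5.33 and 7.04 on Ctrl Treg arrays 1 to 3, 6.69, 4.77 and 6.41 on CKO Treg, 5.54, 9.19 and 4.80 on Ctrl Teff, and 8.13, 7.94 and 4.67 on CKO Teff. Their low arrays were again the Treg arrays numbered 2 and Ctrl Teff 3, here joined by CKO Teff 3. Prtn3, proteinase 3, read 9.56, 5.72 and 7.999 on Ctrl Treg arrays 1 to 3, 7.53, 5.46 and 7.39 on CKO Treg, 6.61, 9.99 and 4.73 on Ctrl Teff, and 9.17, 8.85 and 5.28 on CKO Teff. Ctsg, cathepsin G, read 9.11, 5.03 and 8.08 on Ctrl Treg arrays 1 to 3, 7.02, 5.62 and 7.33 on CKO Treg, 6.61, 9.50 and 4.77 on Ctrl Teff, and 11.01, 10.17 and 5.46 on CKO Teff. Mpo and Ctsg peaked on CKO Teff 1, at 12.10 and 11.01, while Elane and Prtn3 peaked on Ctrl Teff 2. A different probe of Mpo with a span of 5.81 followed the one used with r = 0.973 over the 12 arrays. Its other probes spanned 3.50 (r = 0.909) and 4.29 (0.967). Of the other varying genes with more than 1 probe, Alox5ap had a second probe with a span of 5.14 (0.992). The second probe of Ltf spanned only 1.69 (0.764), and those of Lyz2 spanned 3.39 (0.894) and 0.46 (−0.08).

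The proteases of later granules, several receptors and the transcription factors were closer to the array median. Mmp9, gelatinase B, read 5.58, 5.02 and 6.76 on Ctrl Treg arrays 1 to 3, 4.95, 4.50 and 4.81 on CKO Treg, 5.17, 6.90 and 4.73 on Ctrl Teff, and 5.42, 6.18 and 4.68 on CKO Teff. It passed 6 only on Ctrl Treg 3, Ctrl Teff 2 and CKO Teff 2. Mmp8, neutrophil collagenase, stayed between 4.43 and 4.77, Cxcr2, the chemokine receptor of mature neutrophils, between 4.52 and 5.05, and Csf3r, the G-CSF receptor, between 4.44 and 5.51. Cebpe, the factor needed for specific granules, ran from 4.55 to 6.30, highest on Ctrl Teff 2. The other narrow members were Ccl6 (4.40 to 5.32), Csf1r (4.73 to 5.24), the CD11b gene Itgam (4.47 to 4.93), the NADPH oxidase gene Cybb (4.41 to 4.63), the PU.1 gene Spi1 (4.56 to 5.30) and Cebpa (4.23 to 4.79). Of these 10 narrow members, 9 never rose 1 log2 unit above the array median, a level at which a dim probe cannot be told from a missing transcript.

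**Figure D1:**
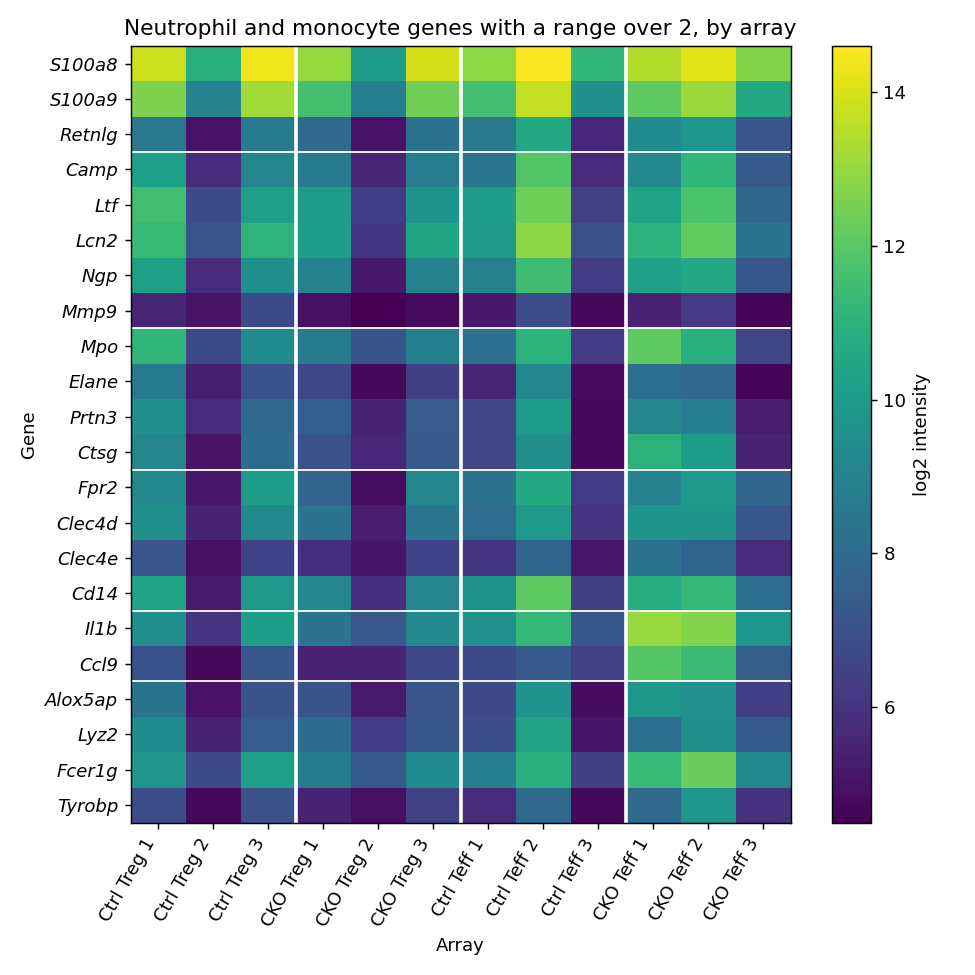
Log2 intensity (colour) of the 22 genes that span more than 2 log2 units, 1 row each, on the 12 arrays, 1 column each, grouped by Ctrl Treg, CKO Treg, Ctrl Teff and CKO Teff. Ctrl Treg 2, CKO Treg 2 and Ctrl Teff 3 are, row by row, among the darkest columns for most genes, although S100a8 reads above 10 on each, and Ctrl Teff 2, CKO Teff 1 and CKO Teff 2 are among the brightest.

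Receptors and inflammatory genes of myeloid cells followed a similar course. Fpr2, a formyl peptide receptor, read 9.22, 5.17 and 10.04 on Ctrl Treg arrays 1 to 3, 7.80, 4.85 and 9.08 on CKO Treg, 8.35, 10.67 and 6.21 on Ctrl Teff, and 8.95, 9.88 and 7.82 on CKO Teff. Cd14, the lipopolysaccharide co-receptor, read 10.41, 5.25 and 9.89 on Ctrl Treg arrays 1 to 3, 9.19, 5.89 and 9.09 on CKO Treg, 9.67, 12.04 and 6.41 on Ctrl Teff, and 10.79, 11.24 and 8.15 on CKO Teff. Both were near 5 on Ctrl Treg 2 and above 10.5 on Ctrl Teff 2, and the groups overlapped. Clec4d, a C-type lectin that senses microbial glycolipids, read 9.55, 5.48 and 9.30 on Ctrl Treg arrays 1 to 3, 8.37, 5.32 and 8.48 on CKO Treg, 8.12, 9.95 and 6.02 on Ctrl Teff, and 9.73, 9.74 and 7.20 on CKO Teff. Its partner Clec4e (Mincle) read 7.15, 4.91 and 6.55 on Ctrl Treg arrays 1 to 3, 5.89, 5.11 and 6.51 on CKO Treg, 6.01, 7.77 and 5.15 on Ctrl Teff, and 8.29, 7.74 and 5.74 on CKO Teff. Both lectins were as bright on CKO Teff 1 as on Ctrl Teff 2 to within 0.6 log2 units.

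Alox5ap, which presents arachidonate to 5-lipoxygenase, read 8.44, 5.01 and 7.07 on Ctrl Treg arrays 1 to 3, 7.07, 5.21 and 7.17 on CKO Treg, 6.67, 9.68 and 4.79 on Ctrl Teff, and 9.84, 9.60 and 6.35 on CKO Teff. Lyz2, lysozyme M, read 9.41, 5.51 and 7.44 on Ctrl Treg arrays 1 to 3, 8.04, 6.26 and 7.20 on CKO Treg, 6.93, 10.32 and 5.10 on Ctrl Teff, and 8.13, 9.58 and 7.34 on CKO Teff. Alox5ap peaked on CKO Teff 1 and Lyz2 on Ctrl Teff 2. The signalling adaptors of myeloid and NK receptors were brightest on CKO Teff 1 and CKO Teff 2, and their groups overlapped. Fcer1g, the Fc receptor gamma chain, read 9.76, 6.77 and 10.24 on Ctrl Treg arrays 1 to 3, 8.70, 7.33 and 9.43 on CKO Treg, 8.84, 10.91 and 6.40 on Ctrl Teff, and 11.31, 12.28 and 9.20 on CKO Teff. Tyrobp (DAP12) read 6.90, 4.77 and 7.005 on Ctrl Treg arrays 1 to 3, 5.45, 4.90 and 6.48 on CKO Treg, 5.71, 7.99 and 4.77 on Ctrl Teff, and 8.01, 9.82 and 5.99 on CKO Teff. CKO Teff 2 was the highest array for both.

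A cytokine and a chemokine complete the varying genes. Il1b, interleukin-1 beta, read 9.49, 6.07 and 10.11 on Ctrl Treg arrays 1 to 3, 8.34, 7.25 and 9.32 on CKO Treg, 9.61, 11.24 and 7.19 on Ctrl Teff, and 13.04, 12.74 and 9.82 on CKO Teff. Ccl9, which attracts myeloid cells, read 7.04, 4.75 and 7.19 on Ctrl Treg arrays 1 to 3, 5.50, 5.53 and 6.70 on CKO Treg, 6.72, 7.34 and 6.46 on Ctrl Teff, and 11.95, 11.42 and 7.49 on CKO Teff. Ccl9 passed 11 only on CKO Teff 1 and CKO Teff 2, and CKO Teff 3, at 7.49, was still above the highest array of every other group (7.34). Il1b was above 12 on the same CKO Teff arrays. Group means of Ccl9 were 6.32 ± 1.37 (SD, n = 3) in Ctrl Treg, 5.91 ± 0.68 in CKO Treg, 6.84 ± 0.45 in Ctrl Teff and 10.29 ± 2.43 in CKO Teff.

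Averaged over the 22 varying genes, the arrays fell into an order that cut across the labels. The mean was 9.53, 6.00 and 9.10 on Ctrl Treg 1 to 3, 8.17, 6.01 and 8.49 on CKO Treg, 8.15, 10.54 and 6.17 on Ctrl Teff, and 10.08, 10.48 and 7.42 on CKO Teff. Replicate 2 was the lowest array of both Treg groups and the highest of both Teff groups. Group means were 8.21 ± 1.93 (SD, n = 3) in Ctrl Treg, 7.56 ± 1.35 in CKO Treg, 8.29 ± 2.19 in Ctrl Teff and 9.33 ± 1.66 in CKO Teff, so that neighbours in this order lay closer together than the SD of any group. Ctrl Teff 2 was the highest array for 14 of the 22 genes, CKO Teff 1 for 6 and CKO Teff 2 for 2. Ctrl Teff 3 was among the 3 lowest arrays for 21 genes, CKO Treg 2 for 20 and Ctrl Treg 2 for 19.

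**Figure D2:**
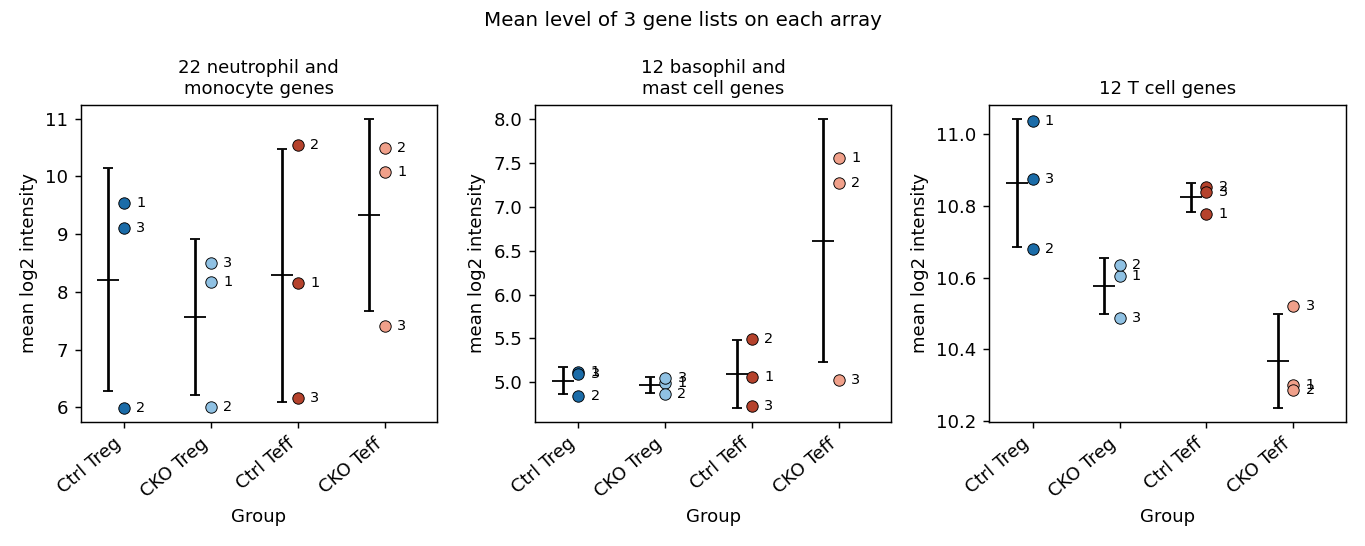
Mean log2 intensity on each array, labelled by replicate number, of the 22 varying genes, of 12 basophil and mast cell genes and of 12 T cell genes, with each group's mean and SD (n = 3) as bars to the left; each panel has its own scale and none starts at 0. The groups overlap in the 22 genes, CKO Teff 1 and 2 alone are high in the basophil list, and the T cell genes are lowest on the same CKO Teff 1 and 2 (10.30 and 10.29) and highest on Ctrl Treg 1 (11.03).

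The replicate number, which pairs Ctrl and CKO arrays within a cell type, carried most of this spread. Within the 6 Treg arrays it accounted for a median of 89.0% of a gene's sum of squares over the 22 varying genes and genotype for 4.62%, against medians of 51.2% and 12.9% over all genes. Within the 6 Teff arrays the medians were 81.7% and 4.61%, against 62.5% and 7.96%. S100a8 in Treg lay above the Treg median for the number, with 95.6%, and had 4.22% for genotype. Mmp9 in Treg (49.0% for genotype) and Ccl9 in Teff (59.2%) were the only cases among the 22 in which genotype took the larger part, and in Teff genotype also took 39.4% for Il1b, 32.6% for Fcer1g and 27.1% for Tyrobp. Between all 4 groups together lay a median of 10.9% of the sum of squares (5.02% to 68.0%), against 26.7% over all genes.

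**Figure D3:**
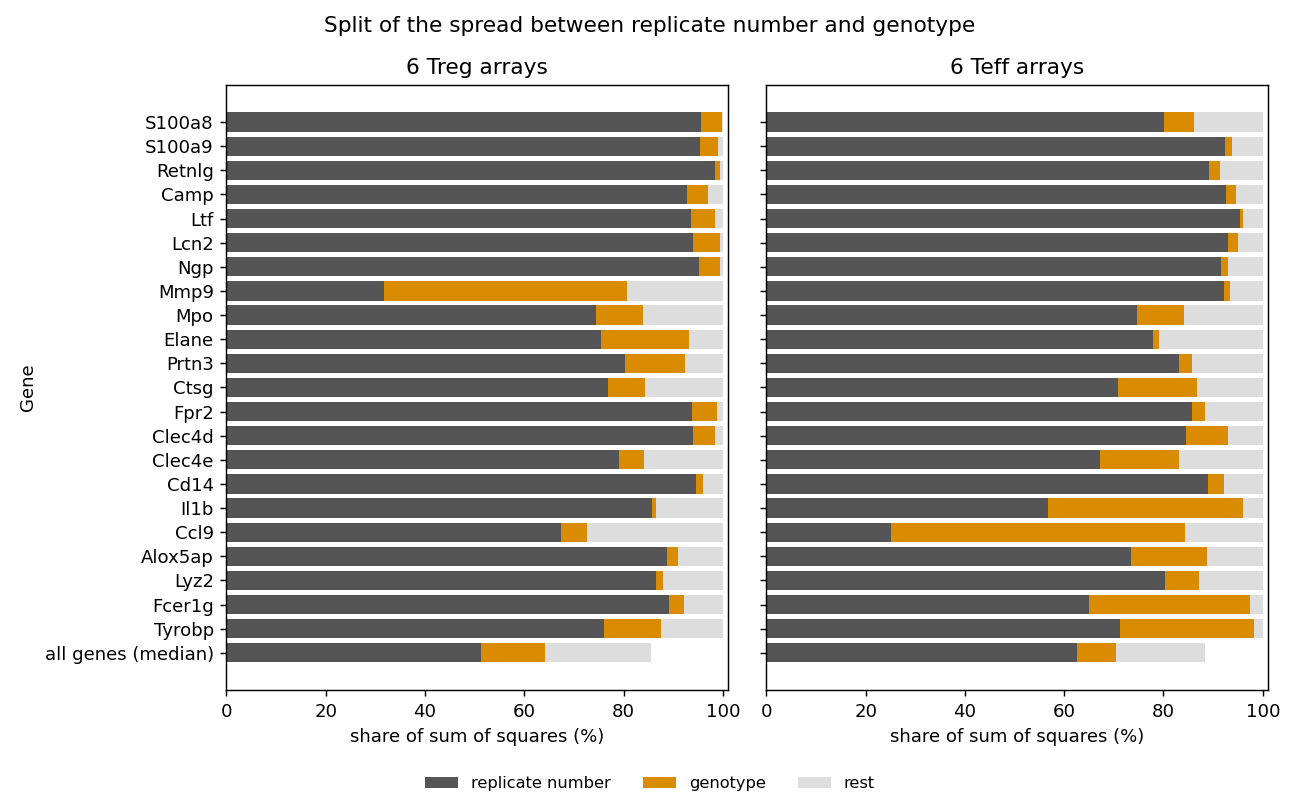
Share of the sum of squares (%) that goes with replicate number, genotype and the rest, for each of the 22 varying genes over the 6 Treg arrays and the 6 Teff arrays. Replicate number takes the largest share except for Mmp9 in Treg and Ccl9 in Teff; the lowest bar gives the 3 medians over all genes tested, which need not sum to 100.

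The genes also rose and fell together. Over the 12 arrays the other 21 varying genes correlated with S100a8 with a median Pearson r of 0.81 (Spearman rho 0.84), and the median was 0.92 over the 6 Treg arrays and 0.91 over the 6 Teff arrays. These are descriptions without a p, since same-numbered Ctrl and CKO arrays are not independent points. Leaving out the 2 arrays farthest from the S100a8 median (CKO Treg 2 and Ctrl Treg 2) left a median r of 0.82, and deviations from the group means gave 0.88. The closest to S100a8 were Fpr2 (r = 0.987), S100a9 (0.984) and Lcn2 (0.959). The loosest was Ccl9, with r = 0.504, which fell to 0.271 without those 2 arrays, followed by Mmp9 (0.727), Ctsg (0.762), Mpo (0.763) and Il1b (0.768).

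Over all 231 pairs of the 22 genes the median r was 0.882, and 100 pairs exceeded 0.9. The tightest was Cd14 with Retnlg (0.992), and the loosest Mmp9 with Ccl9 (0.380). Tight pairs occurred within the primary granule genes, whose 6 pairs ran from 0.916 to 0.988, and also between genes of different roles, as for S100a9 with Fpr2 and Ngp with Clec4d (both 0.988). Among the 10 narrow members the median r with S100a8 was 0.418. It was highest for Cebpe, Itgam and Csf3r, with 0.665, 0.658 and 0.647. Mmp8 had 0.098, Csf1r −0.025, Cebpa −0.536 and Cybb −0.884. All of the narrow members but Cebpe, Itgam and Cybb included, stayed too close to background to carry a level.

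**Figure D4:**
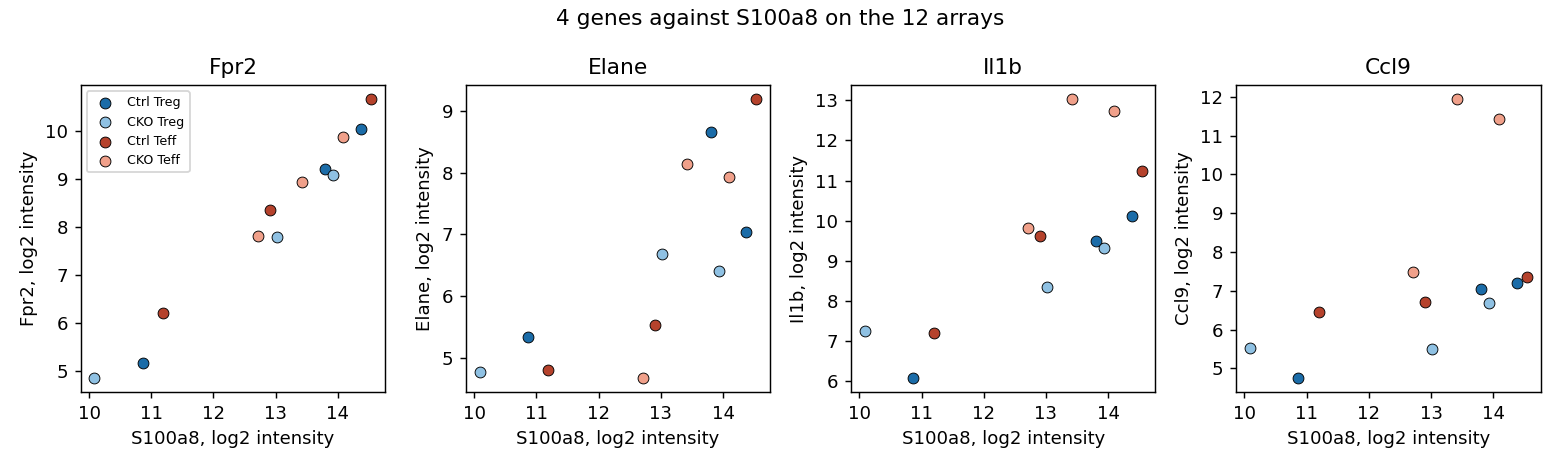
Log2 intensity of Fpr2, Elane, Il1b and Ccl9 against that of S100a8, 1 point for each of the 12 arrays, coloured by group. Fpr2 follows S100a8 closely (r = 0.987), and Elane and Il1b follow it less closely (r of 0.779 and 0.768). By contrast, 2 CKO Teff arrays carry Ccl9 far above its course on the other 10 (r = 0.504).

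The 3 bright Teff arrays differed in which of these genes led. Against Ctrl Teff 2, CKO Teff 1 was lower in Camp by 2.53 log2 units, in Lyz2 by 2.19, in Lcn2 by 1.84 and in S100a8 by 1.11, but higher in Mpo by 1.06, in Ctsg by 1.51, in Il1b by 1.80 and in Ccl9 by 4.60. These arrays were chosen for this after their values were seen, and each is 1 sample. Several basophil genes were also high on CKO Teff 1 and CKO Teff 2. The 12 genes of a basophil and mast cell list averaged 7.55 on CKO Teff 1 and 7.26 on CKO Teff 2, and 4.73 to 5.50 on the other 10 arrays. Its widest genes were the basophil protease Prss34 (4.74 to 13.96), Mcpt8 (4.54 to 10.85), Cpa3 (4.59 to 10.34) and Gata2 (4.11 to 9.52). Ms4a2, Mcpt4, Tpsb2 and Alox15 of the same list stayed between 4.21 and 4.71, Kit ran from 6.17 to 8.75 without this pattern, and Cma1 was raised on CKO Teff 2 alone (6.35). Over the 12 arrays the correlation with Mcpt8 was 0.963 for Ccl9, 0.837 for Il1b, 0.813 for Tyrobp and 0.799 for Ctsg. It was 0.782 for Clec4e, 0.765 for Fcer1g, 0.7496 for Alox5ap and 0.714 for Mpo. The other varying genes ran from 0.348 (Mmp9) to 0.586 (Clec4d), with 0.423 for S100a8 and 0.516 for Camp. Mcpt8 itself read 4.54 to 5.68 on 10 arrays, against 10.85 on CKO Teff 1 and 10.18 on CKO Teff 2. These correlations thus mostly restate a high level on CKO Teff 1 and CKO Teff 2, chosen after their values were seen. NK cell markers (9 measured) were also highest on these arrays, with means of 7.74 on CKO Teff 2 and 6.04 on CKO Teff 1 against 4.63 to 5.07 on the other 10, although Klrb1c and Ncr1 stayed between 4.13 and 4.80 on all 12. The part of basophil and NK transcripts in the values of the varying genes, among them Ccl9, Il1b, Fcer1g and Tyrobp, was not tested.

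**Figure D5:**
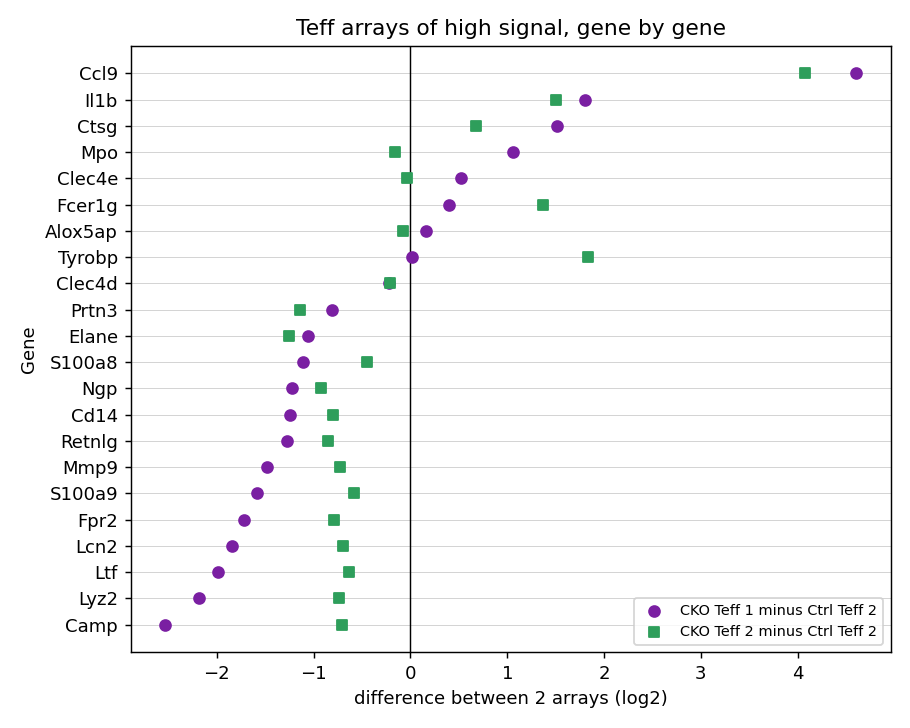
Difference in log2 intensity of CKO Teff 1 and of CKO Teff 2 from Ctrl Teff 2, for each of the 22 varying genes. Camp, Lyz2 and Ltf lie below 0 and Ccl9, Il1b and Ctsg above it on CKO Teff 1.

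Between genotypes in Treg, none of the 30 tested members passed limma's test at an adjusted p under 0.05, where 0.099% of all genes (12 of 12119) did, and none had an unadjusted p under 0.05, where 5.33% of all genes had. Calprotectin, the primary granule genes and Camp, Ltf, Lcn2 and Ngp had lower means in CKO Treg, each by less than its standard error, while Mmp8 differed by 0.01. The median difference was −0.54 over the 30 members and 0.00 over all genes, and leaving out 1 array moved it to between −1.50 (without Ctrl Treg 2) and 0.05 (without CKO Treg 2). The difference for S100a8 was −0.67 ± 1.18 (SE, 3 arrays against 3; 95% interval −3.27 to 1.94; limma adjusted p = 1.00), that for Lcn2 −0.93 ± 1.73 (adjusted p = 1.00) and that for Elane −1.05 ± 1.29 (adjusted p = 1.00). The signs of S100a8 and Lcn2 turned without CKO Treg 2 (both 0.46), and that of S100a8 also without Ctrl Treg 3 (0.01). Mmp9 had a difference of −1.04 ± 0.59 (95% interval −2.35 to 0.28; adjusted p = 1.00) and was the only member whose groups did not overlap, 1 of 30 where 12.3% of all genes had such groups.

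With the replicate block, which compares same-numbered arrays, the errors of the Treg differences shrank and the call did not change. S100a8 then had −0.67 ± 0.30 (limma adjusted p = 0.358), Lcn2 an adjusted p of 0.250, Elane 0.518 and Mmp9 −1.04 ± 0.28 with 0.114, the lowest of the 30. None of the 30 passed in limma, where 2.18% of all genes (264) did, and 6 had an unadjusted p under 0.05, against 14.1% of all genes. In all 3 pairs 13 of 30 members were lower in CKO (Camp, Cebpe, Clec4d, Csf3r, Elane, Fpr2, Lcn2, Ltf, Mmp9, Ngp, Prtn3, S100a8 and S100a9), against 18.2% of all genes, and none was higher in all 3, against 17.5%. Since these genes move together, they do not count as 13 separate observations.

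Between genotypes in Teff, again 0 of 30 members passed, where 0.0165% of all genes (2) did, and only Ccl9 had an unadjusted p under 0.05, against 4.17% of all genes. Ccl9 was 3.44 ± 1.04 log2 units higher in CKO Teff (SE; 95% interval 1.14 to 5.75; limma adjusted p = 0.983), with no overlap between the groups. It passed without CKO Teff 3, with a difference of 4.84 and an adjusted p of 0.0163, and the difference fell to 0.65 (adjusted p = 0.906) without CKO Teff 1 and CKO Teff 2. The differences were 2.52 ± 1.29 for Il1b (95% interval −0.34 to 5.38), 2.21 ± 1.25 for Fcer1g and 1.78 ± 1.05 for Tyrobp (limma adjusted p = 1.00 for each), and without CKO Teff 1 and CKO Teff 2 they were 0.47, 0.48 and −0.17. With the replicate block 0 of 30 passed in limma, where 0.099% of all genes (12) did, and 8 had an unadjusted p under 0.05, against 10.4% of all genes. The adjusted p was then 0.108 for Ccl9, 0.0782 for Il1b, 0.0611 for Fcer1g and 0.0641 for Tyrobp. The median difference of the 30 members was 0.51, against −0.02 over all genes. Leaving out 1 array moved it to between −0.21 (without Ctrl Teff 3) and 1.71 (without Ctrl Teff 2), and it was −0.59 without CKO Teff 1 and CKO Teff 2. Of 12 T cell markers, 11 had a lower mean in CKO Teff (median difference −0.48), as had 6757 of all 12119 genes. None of the 12 passed in limma, and 3 had an unadjusted p under 0.05, against 4.17% of all genes. With the replicate block 8 had, against 10.4% of all genes. The part of the T cell markers in these differences was not tested.

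In Teff, 6 of 30 members were higher in CKO in all 3 same-numbered pairs (Ccl9, Ctsg, Fcer1g, Il1b, Mmp8 and Tyrobp), against 12.8% of all genes, and 1, the dim Csf1r, was lower in all 3, against 17.7%. Non-overlapping groups were seen for Ccl9 (higher) and for the dim Csf1r (lower), 2 of 30 where 6.77% of all genes had them.

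No member separated Ctrl Treg from Ctrl Teff. None of 30 passed limma's test there, where 1.01% of all genes (123) did, none had an unadjusted p under 0.05, against 10.4% of all genes, and none had groups without overlap, where 14.3% of all genes had. The median difference was 0.00, and leaving out 1 array moved it to between −0.70 (without Ctrl Teff 3) and 0.90 (without Ctrl Teff 2). In CKO, Treg minus Teff had a median of −1.35 against 0.03 over all genes. It lay between −2.20 (without CKO Teff 3) and −0.40 (without CKO Treg 2) with 1 array left out, and was 0.08 without CKO Teff 1 and CKO Teff 2. No member passed there either, where 0.355% of all genes (43) did. Ccl9 had −4.38 ± 1.04 (SE; 95% interval −6.68 to −2.08; limma adjusted p = 0.114), Il1b −3.56 ± 1.29 (adjusted p = 0.332) and Tyrobp −2.33 ± 1.05 (adjusted p = 0.461), the 3 members with an unadjusted p under 0.05, against 10.8% of all genes. Without CKO Teff 3, Ccl9 passed with −5.78 (adjusted p = 0.00349), and without CKO Teff 1 and CKO Teff 2 it had −1.59 (adjusted p = 0.971), Il1b −1.51 and Tyrobp −0.38. Groups did not overlap for 4 of 30 members (Ccl9, Il1b and the dim Cxcr2 lower in Treg, the dim Cebpa higher), where 13.7% of all genes had such groups.

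The contrast between the genotype effects in Treg and in Teff passed in limma for 0 of 30 members, where 0.0165% of all genes (2) passed, and 1 member, Ccl9, had an unadjusted p under 0.05 (3.48% of all genes). Its value was −3.86 ± 1.47 (SE; unadjusted p = 0.0244; limma adjusted p = 1.00, and 0.205 with the replicate block). With the replicate block 0 of 30 members passed in limma, where 0.0413% of all genes (5) did, and 14 had an unadjusted p under 0.05, against 11.4% of all genes. The response of Ccl9 to genotype was thus not shown to differ between Treg and Teff. The comparisons share arrays, so their values are not independent of one another.

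Genes outside the set that ran closest to it were found by correlation with the mean of 11 neutrophil members over the 12 arrays. They were Chil4 (r = 0.986), Slc7a11 (0.978), Chil3 (0.978), Anxa3 (0.972), Asprv1 (0.969), Chil1 (0.969), Tnfaip2 (0.963), Cd177 (0.962), Hcar2 (0.958) and Acod1 (0.956). Chil3 is a chitinase-like protein of myeloid cells, Cd177 a neutrophil surface protein and Acod1 the enzyme that makes itaconate. Chil3 ran from 4.51 to 10.07 and Acod1 from 6.43 to 12.06. Of the 12119 genes, 46 had r over 0.9 with that mean and 133 had r over 0.8. These counts include members, some of which are part of the mean.

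A list of 50 other neutrophil genes, of which 46 were measured, followed the same arrays. Its mean ran from 5.80 on CKO Treg 2 to 7.58 on Ctrl Teff 2, 27 of the 46 spanned more than 2 log2 units, and 19 had r over 0.8 with the 11-gene mean. None of its 42 tested genes passed limma's test in any of the 5 comparisons, and between 0 and 5 had an unadjusted p under 0.05, where 3.48% to 10.8% of all genes had. With the replicate block 2 of 42 passed in Treg, against 2.18% of all genes. They were, named here after their values were seen, Mxd1 (−1.41, adjusted p = 0.0213) and Ltb4r1 (−1.39, adjusted p = 0.0263), both lower in CKO Treg and both only loosely tied to the 11-gene mean (r of 0.50 and 0.57). On the monocyte and macrophage list only Irf8, Fcgr4, Mpeg1 and Clec7a of 27 spanned more than 2. Their r with the 11-gene mean was 0.327, 0.850, 0.798 and 0.802. The 5 measured B cell markers stayed between 4.27 and 5.04 on all 12 arrays. Of the 5 measured eosinophil markers, Epx, Il5ra, Ccr3 and Siglecf stayed between 4.23 and 4.89, while Prg2 ran from 4.56 to 7.50, highest on Ctrl Teff 2. None of the 12 T cell markers had r over 0.8 with the 11-gene mean.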

How the data were processed

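Total RNA of 12 sorted samples, 3 in each of 4 groups taken from the sample titles, was measured on Illumina mouse arrays. What the authors deposited is 1 log2 intensity for each probe and array. GenomeStudio and limma 3.30.11 appear in the submitters' processing notes. The sources used here do not state how background, normalization and probe filtering were handled. Raw intensities were not analysed here, and the number of arrays limits the precision.

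Of 31641 probes, 28197 with 1 gene symbol in the platform annotation were used. Probes above the array median on at least 3 of 12 arrays were kept (17579), and a gene was represented by its kept probe with the highest mean, giving 12119 genes. Groups were compared with limma 3.58.1 in R 4.3.3 (lmFit, eBayes, 1 mean per group, all 12 arrays), two-sided, with Benjamini-Hochberg adjustment over all genes and a threshold of 0.05. Differences are CKO minus Ctrl or Treg minus Teff. Intervals are 95% and per gene.

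The members and marker lists were chosen with earlier results of these data known. Members whose span exceeded 2 log2 units were given array by array and the others by range. Genes outside the set were the 10 most correlated with the mean of S100a8, S100a9, Camp, Ltf, Lcn2, Ngp, Mmp8, Mmp9, Cxcr2, Csf3r and Retnlg, and up to 4 of the widest span per list.

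Residuals of same-numbered arrays correlated across genes at 0.519 to 0.589 between CKO and Ctrl Treg and 0.348 to 0.737 between CKO and Ctrl Teff, so the replicate number was taken to pair these arrays. Between Treg and Teff the correlations were −0.266 to 0.325, and no pairing was assumed. The code was tested on simulated data.

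Alternatives were quantile normalization, median centring, other filters, the mean of a gene's probes, trend and robust eBayes, array weights, replicate blocks, fewer arrays and leaving out each array. Leaving out both Treg arrays numbered 2, or CKO Teff 1 and CKO Teff 2, was chosen after seeing the data.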

Additional observations from a re-analysis of the deposited data

How the results depend on the processing

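The count of members past the threshold was 0 in each of the 5 comparisons and stayed 0 under every alternative run, with these exceptions, each made by Ccl9. With array weights 1 member passed for Treg against Teff in CKO (−5.19, limma adjusted p = 0.0256). Leaving out single arrays gave 0 to 1 in that comparison and 0 to 1 for CKO against Ctrl in Teff, the 1 in each coming without CKO Teff 3 (−5.78 and 4.84). With the replicate block within cell type, which pairs Ctrl and CKO arrays, the count stayed 0 in both genotype comparisons and in the interaction. That fit was not run for Treg against Teff, since its blocks lie within a cell type.

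The S100a8 difference in Treg turned to 0.46 without CKO Treg 2 and 0.01 without Ctrl Treg 3 (range −1.74 to 0.46 over single arrays left out), and Lcn2 to 0.46 without CKO Treg 2 (−2.27 to 0.46). Without CKO Teff 1 and CKO Teff 2, Tyrobp in Teff turned to −0.17 and the members' median for Treg against Teff in CKO moved to 0.081. The median correlation with S100a8 stayed between 0.78 and 0.88.

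Counts over all genes depended on the fit. For CKO against Ctrl they ran from 4 to 264 in Treg (12 as reported) and 0 to 52 in Teff (2). For Treg against Teff they ran from 29 to 333 in Ctrl (123) and 4 to 259 in CKO (43). For the interaction they ran from 0 to 22 (2). The fit on only the arrays compared is not counted there, since the interaction takes all 4 groups. These ranges leave out the fit without CKO Teff 1 and CKO Teff 2, where CKO Teff has 1 array. With 3 arrays a group and a spread this wide, the interval of the S100a8 genotype difference in Treg reached from −3.27 to 1.94. Signal within 1 log2 unit of the array median sets no level for 9 of the narrow members.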

Other observations

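Most genes listed for other cell types varied less, or differently, on the same arrays, but a few ran with the neutrophil genes. Whether the signal of the listed genes came from other cells or from the sorted T cells was not tested. Dendritic cell and MHC class II genes (13 measured) averaged 5.13 on Ctrl Teff 1 to 6.67 on CKO Treg 2, an array on which the neutrophil genes were low, and none had r over 0.8 with the 11-gene neutrophil mean. Erythroid and platelet genes (8 measured) averaged 4.58 on Ctrl Teff 3 to 6.08 on CKO Teff 1. Of these, Alas2 (r = 0.8003) and Slc4a1 (0.784) ran with the 11-gene mean and were highest on Ctrl Teff 2. The rest had r from 0.081 (Klf1) to 0.558 (Pf4). Of 11 measured epithelial and stromal genes, only the endothelial and leukocyte adhesion gene Pecam1 spanned more than 2 log2 units, from 5.21 to 8.41, and it was highest on CKO Teff 1 (8.41) and CKO Teff 2 (8.24). Krt8 reached 6.29 on Ctrl Treg 3 and Krt18 5.74 on Ctrl Teff 3.

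The basophil and mast cell list, tested over its 8 genes that passed the filter, was higher on average in CKO Teff than in Ctrl Teff for all 8, with a median difference of 2.41, and 6 had an unadjusted p under 0.05, where 4.17% of all genes had. None passed limma's adjusted test, where 0.0165% of all genes did. With the replicate block 7 had an unadjusted p under 0.05 (10.4% of all genes), and the lowest adjusted p was 0.0729. The groups differed mainly through CKO Teff 1 and CKO Teff 2, with CKO Teff 3 at a mean of 5.03.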
